A study of Rattus norvegicus with 71 samples.

Results

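Mesenteric artery of the rat, a muscular artery that feeds the gut, was compared here between 24 and 15 months of age in the 12 arrays whose strain-separating transcripts stood at the level of the Fischer344 x Brown Norway cross (F344xBN). The pair consisted of 6 arrays of 24-month mesenteric artery labelled BN (Brown Norway) and 6 arrays of 15-month mesenteric artery labelled F344xBN, out of 36 mesenteric arrays and 71 arrays in all. The pair was matched by the measured level of Trio, Echdc2, Msrb3, Itga1 and Prps2 and not by label, because the 24-month arrays labelled BN carried these transcripts at the F344xBN level. The groups are named below by their labels.

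The study hybridised labelled RNA of thoracic aorta and mesenteric artery from BN and F344xBN rats of 6, 15 and 24 months to Affymetrix rat arrays, with 6 arrays in each mesenteric group. Its question, as the title states it, was whether gene expression follows age-related vascular pathology. Both groups of the pair, like every other sample, carry a protocol line for a collateral artery model made by occluding neighbouring arteries, and the labels do not say which vessels were collaterals. The labels name no drug and no transgene, and they do not say whether each array was a separate animal, so p-values measure the spread between arrays.

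An artery wall holds smooth muscle cells that contract and make matrix, an endothelial lining that faces the blood, and an outer layer of fibroblasts, nerves, macrophages and fat. With age, large and small arteries of rats are known to stiffen, as elastin and collagen are remodelled, and to lose part of their endothelial control of tone. Osteopontin (Spp1) and alkaline phosphatase (Alpl) are known from mineralising and injured vessels, and cells of the wall run a circadian clock of their own.

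The strain-separating transcripts set the pair, so their values are a description. For Trio, a guanine nucleotide exchange factor, the signal of the separating probe set ran from 149 to 308 over the 6- and 15-month arrays labelled BN and from 2632 to 4342 over those labelled F344xBN. The 24-month arrays labelled BN lay between 2832 and 4019 for this Trio probe set, and those labelled F344xBN between 212 and 271. Echdc2, an enzyme of mitochondrial acyl-CoA metabolism, showed the same exchange, with 813 to 1117 in the 24-month arrays labelled BN and 38.2 to 155 in those labelled F344xBN. The integrin subunit Itga1, a collagen receptor, ran from 4976 to 10826 in the 24-month arrays labelled BN and from 1608 to 2597 in those labelled F344xBN. In every separating probe set of the 5 genes, 6 of 6 arrays labelled BN at 24 months lay on the F344xBN side and 6 of 6 labelled F344xBN lay on the BN side. Another probe set of Trio and another of Msrb3 did not separate the strains at 6 and 15 months, and neither did 1 of the 3 Prps2 probe sets. Between the 24- and 15-month arrays of the pair the log2 difference of the separating probe sets was small, for example -0.01 for Trio, 0.11 for Echdc2 and -0.11 for Itga1.

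**Figure D1:**
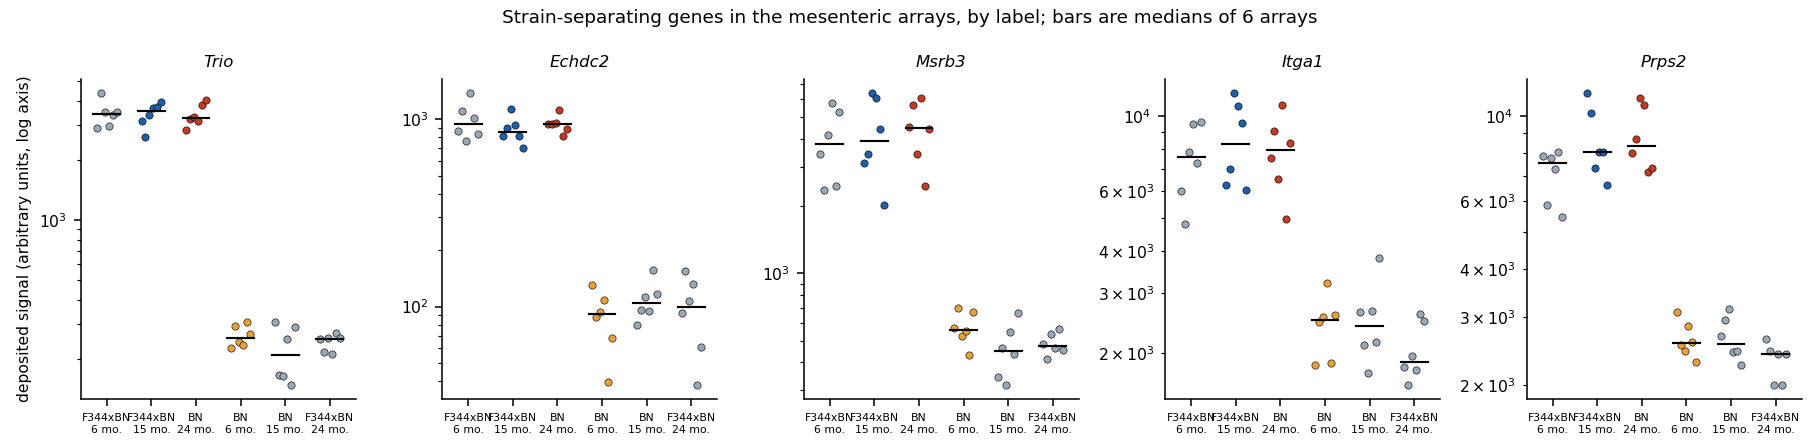
Deposited signal (arbitrary units, log axis) of 5 strain-separating genes in each of the 36 mesenteric arrays, grouped by label; points are arrays and bars are medians of 6 arrays. The 24-month arrays labelled BN sit with the 6- and 15-month arrays labelled F344xBN, and the 24-month arrays labelled F344xBN sit with the arrays labelled BN.

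Genes the rule did not use were also read. At 6 months 1797 probe sets outside the 5 genes differed between the strain labels. With the 24-month labels exchanged, 1095 of them (60.9%) had the same sign at 24 months, and the rest had it with the labels as they stand. The same share over all tested probe sets was not taken, so the shares given here are descriptions. Of the 192 with a 6-month log2 difference of at least 1, 145 (75.5%) kept the sign, and of the 12 with a difference of at least 2, 12 kept it.

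Arrays of both groups showed the smooth muscle programme of an artery. The summed signal of 19 contractile genes ran from 372002 to 652666 in the 24-month arrays and from 402361 to 720973 in the 15-month arrays, and none of 11 pancreas and gut genes passed the filter on low signals. The labelled tissue mass was 9.90 to 13.9 mg at 24 months and 6.30 to 20.7 mg at 15 months. Two-sided exact permutation tests found no difference in mass (p = 0.422), in the 3' to 5' difference of Gapdh (p = 0.563) or of Actb (p = 1), in the poly-A spike-ins (p = 0.0931), in the hybridisation spike-ins (p = 0.617) or in the array median (p = 0.58), and the smallest p adjusted over the 6 measures was 0.558. For the poly-A spike-ins the difference was -0.97 on the log2 scale.

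At 24 months 70 of 16717 tested probe sets (0.419%) differed from 15 months at an adjusted p of 0.05 in the limma fit, with 28 risen (0.167%) and 42 fallen (0.251%). Of these, 49 carried exactly 1 gene symbol and stood for 16 risen and 31 fallen genes. The largest rises among named genes were those of the focal adhesion protein Tns1 (2.36-fold) and the actin-binding protein Raph1 (2.07-fold), and the largest falls were those of the membrane adaptor Ank3 (2.32-fold) and the furry homologue Fryl (1.89-fold). At an unadjusted p under 0.05 there were 1688 probe sets (10.1%), and the median change of all probe sets was 0.01 on the log2 scale. The count depended on single arrays: it was 21 without the fourth 15-month array, 26 without the fifth, 31 without the sixth, 38 without the first 24-month array, 30 without the second and 21 without the fourth. It was 7 when only these 12 arrays entered the fit. Of the 24 named genes below, Raph1 alone stayed called under every alternative that tested it, 23 of the 24 run, and none changed direction.

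Of the 12 named risen genes, 8 had 24-month arrays that all lay above all 15-month arrays, against 57 of all tested probe sets (0.341%). Of the 12 named fallen genes, 4 had 24-month arrays that all lay below, against 58 (0.347%). These counts describe the called genes and were not tested again, since the call rests on the same arrays.

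Genes of cell adhesion and the actin cytoskeleton stood on both sides. Raph1 (lamellipodin), which brings actin-elongating Ena/VASP proteins to the leading edge of moving cells, had signals of 1364, 1595 and 1787 (lowest, median and highest of 6 arrays) at 24 months and 704, 741 and 855 at 15 months. The groups did not overlap for Raph1, and the log2 change was 1.05 with a standard error of 0.11 and an adjusted p of 2.99e-07. Tns1 (tensin 1), which ties integrins to actin at focal adhesions, gave 3542, 8459 and 12475 at 24 months and 2613, 3261 and 5060 at 15 months, a log2 change of 1.24 ± 0.21 (SE) with an adjusted p of 0.00221. For Tns1, 5 of the 6 24-month arrays lay above all 15-month arrays and the lowest lay among them. A second Tns1 probe set gave -0.18 (adjusted p = 0.694), so the rise was seen by 1 of its probe sets. The laminin chain Lamc3, a basement membrane component, gave 1100, 1962 and 2959 against 759, 941 and 1597, a rise of 0.89 ± 0.20 (adjusted p = 0.0345), with overlapping groups.

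On the side of the falls, Limch1, which activates non-muscle myosin II, gave 1614, 2243 and 2411 at 24 months and 2648, 3189 and 3849 at 15 months. The groups did not overlap for Limch1, which fell by 0.63 on the log2 scale (SE 0.10, adjusted p = 0.0015), and a second of its probe sets fell by 0.58 (adjusted p = 0.0241). Ank3 (ankyrin G), which anchors membrane proteins to the spectrin skeleton, gave 180, 255 and 541 against 414, 671 and 1663. Ank3 fell by 1.21 (SE 0.28, adjusted p = 0.0435), with 1 of the 15-month arrays far above the others, and its second tested probe set fell by 1.08 (adjusted p = 0.0477). Fryl gave 403, 561 and 683 against 819, 987 and 1307 without overlap and fell by 0.92 (adjusted p = 0.0147), while another Fryl probe set gave 0.02 (adjusted p = 0.981). The ARF GTPase-activating protein Git2 fell by 0.85 (adjusted p = 0.00945), while its second probe set gave 0.05 (adjusted p = 0.911). The junction protein Pkp4 fell by 0.63 (adjusted p = 0.0376), and its second probe set gave -0.22 (adjusted p = 0.697). For Git2 the lowest, median and highest signals were 179, 229 and 357 at 24 months and 352, 412 and 565 at 15 months, with 5 of 6 arrays below all 15-month arrays.

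Among matrix genes, Col5a3, a chain of the fibril-nucleating type V collagen, gave 2174, 3830 and 4775 at 24 months and 4295, 5841 and 8379 at 15 months. Col5a3 fell by 0.80 (SE 0.18, adjusted p = 0.0381), with 5 of 6 arrays below all 15-month arrays. Sparc, a collagen-binding matricellular protein, gave 12038, 18148 and 20119 against 23201, 23497 and 29188, without overlap. Sparc fell by 0.51 (SE 0.11, adjusted p = 0.0262), and its second probe set gave -0.30 (adjusted p = 0.273).

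Receptors, channels and membrane lipid genes moved in both directions as well. Ntrk2, which encodes the neurotrophin receptor TrkB, gave 2880, 3442 and 4061 at 24 months and 5381, 5751 and 6168 at 15 months. The groups did not overlap for Ntrk2, which fell by 0.76 (SE 0.11, adjusted p = 0.000454), while its other 2 probe sets gave -0.38 and -0.01, neither of which passed. Kcnk3 (TASK-1), a background potassium channel that helps set the resting potential of arterial muscle, gave 433, 516 and 616 against 759, 836 and 1497. Kcnk3 fell by 0.78 (SE 0.18, adjusted p = 0.0376) without overlap, and its second probe set gave -0.80 but did not pass (adjusted p = 0.716). Pip4k2a, a kinase that makes phosphatidylinositol bisphosphate, gave 776, 1053 and 1255 against 508, 615 and 761, without overlap. Pip4k2a rose by 0.71 (SE 0.12, adjusted p = 0.00224), and Pip4p2, a phosphatase acting on the same lipid, rose by 0.41 (adjusted p = 0.0478). A second Pip4k2a probe set gave 0.08 (adjusted p = 0.732) and a second Pip4p2 probe set 0.15 (adjusted p = 0.456).

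Enzymes and carriers of lipids followed no single direction. Acsl5, which activates long-chain fatty acids, fell by 0.73 (adjusted p = 0.0478), and the choline transporter Slc44a1 fell by 0.71 (adjusted p = 0.0414). Further Slc44a1 probe sets gave -0.34 and -0.18, neither of which passed. Nceh1, a neutral cholesterol ester hydrolase, rose by 0.44 (adjusted p = 0.0478), from 512, 748 and 852 at 15 months to 912, 950 and 1016 at 24 months without overlap.

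Stress and gene-control members included Nupr1, a stress-induced chromatin protein, with 7827, 8790 and 12297 at 24 months and 4611, 5746 and 7641 at 15 months. The groups did not overlap for Nupr1, which rose by 0.68 (SE 0.15, adjusted p = 0.0262). Mef2a, a transcription factor of muscle, gave 3556, 3893 and 5133 against 1966, 2805 and 3271 without overlap, a rise of 0.55 (adjusted p = 0.0124), while its 3 other probe sets gave 0.03, 0.23 and 0.07 and did not pass. Rps6ka5 (MSK1), a nuclear kinase that phosphorylates histone H3 and CREB, gave 742, 898 and 1148 against 555, 595 and 731, a rise of 0.57 (adjusted p = 0.0376). Its second probe set gave 0.13 (adjusted p = 0.722). Ccng1 (cyclin G1), a p53 target, rose by 0.39 (adjusted p = 0.0376), from 3779, 4290 and 5058 to 4942, 5737 and 6434 with the lowest 24-month array below the highest 15-month one. The ubiquitin ligase Rnf40, which modifies histone H2B, fell by 0.65 (adjusted p = 0.0477), and Secisbp2l, a homologue of the selenocysteine insertion factor, fell by 0.69 (adjusted p = 0.0162).

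Among the remaining named genes, Slc66a3, a predicted transporter, rose by 0.67 (adjusted p = 0.0262), Fam171b, a membrane protein, by 0.52 (adjusted p = 0.0262), and the endosomal sorting nexin Snx33 by 0.46 (adjusted p = 0.00795). Of the 24 named genes 14 had other tested probe sets, 19 in all, of which 16 had the same sign and 2 were called. The 23 further called genes included rises of Eif2s3, Itgb5 and Lin52 beside Ccng1 and falls between 0.32 and 0.63 on the log2 scale, among them Ebf1, Nfe2l1, Stk25, Nrep, Lrp5 and Plcb4, genes picked here after their values were seen.

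**Figure D2:**
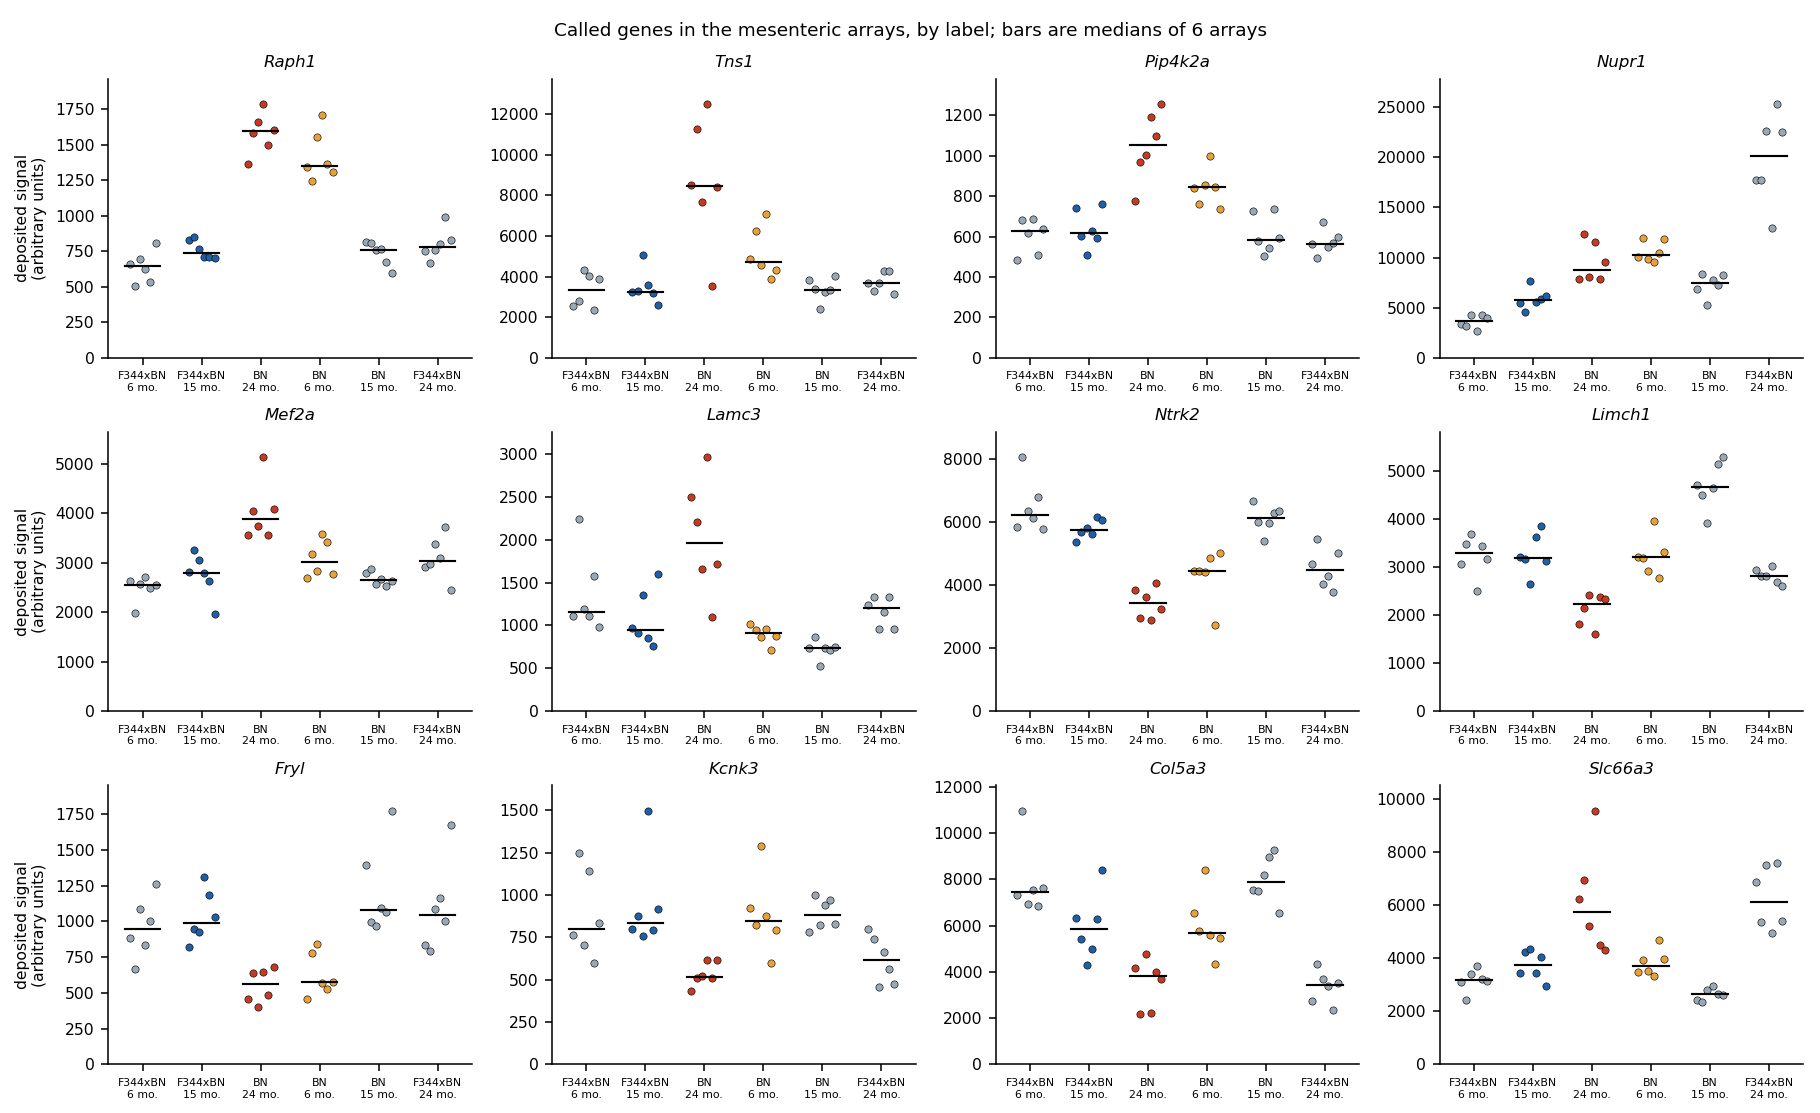
Deposited signal (arbitrary units, linear axis from 0) of 12 called genes in each of the 36 mesenteric arrays, grouped by label; points are arrays and bars are medians of 6 arrays. The 24-month arrays labelled BN (red) are compared with the 15-month arrays labelled F344xBN (blue), and for Raph1, Tns1, Pip4k2a, Ntrk2 and Fryl the median of the 6-month arrays labelled BN (orange) lies on the same side of the blue median as the red one. These genes were picked after their values were seen. Between the labels at 6 months, BN minus F344xBN, the log2 difference was 0.01 for Limch1 and Kcnk3 and -0.56 for Lamc3.

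Many of the called transcripts differed in the same way in a group outside the pair, the 6-month arrays labelled BN, a pattern noticed after the values were seen. Raph1 had signals of 1246, 1354 and 1711 in these 6-month arrays, and its highest value in the other 4 mesenteric groups was 993. For Tns1 they gave 3893, 4721 and 7068, for Pip4k2a 735, 844 and 998, and for Fryl 460, 573 and 842. Between 6 and 15 months within the label BN, 583 probe sets (3.49%) were called. These 12 arrays are separate from the pair, but the fit gives both comparisons the same spread for each probe set, so calls are not independent. Of the 70 called probe sets, 69 had the same sign there, with 34 of the 70 (48.6%) called in that direction, against 3.15% of all tested probe sets. All tested probe sets had the same sign in 66.7% of cases, and the changes correlated at r = 0.45 over 16717 probe sets, many of which move together. Between the strain labels at 6 months, where 1804 probe sets (10.8%) were called, 35 of the 70 (50%) were called on the side of the label BN, against 8.12% of all tested. Calls of that comparison rest on the same shared spread.

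At 6 against 15 months within the label BN the log2 difference was 0.95 for Raph1 (adjusted p = 2.03e-06), for Secisbp2l -0.76 (adjusted p = 0.00212) and for Sparc -0.58 (adjusted p = 0.0025). The sample titles number the mesenteric groups in succession, with 25 to 30 for the 24-month and 31 to 36 for the 6-month arrays labelled BN, and 1 to 24 for the other groups. What these 2 groups share beyond the label was not tested.

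The other pair matched by the same transcripts was 24-month arrays labelled F344xBN against 15-month arrays labelled BN. It shares no array with this one, but the fit gives both the same spread for each probe set, so calls are not independent. In the other pair 1133 probe sets (6.78%) were called, 591 higher (3.54%) and 542 lower (3.24%), and 19 were called in both, all with the same sign. They made up 27.1% of the calls of this pair and 1.68% of those of the other. Across 16717 probe sets the changes of both pairs correlated at r = 0.40, as a description. Of the calls here, 52 of 70 had the same sign in the other pair, against 61.9% of all tested probe sets.

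Genes called in both pairs but not between the strain labels at 6 months were Ccng1, Col5a3, Lamc3, Limch1, Slc66a3, Slco3a1 and Snx33. Limch1 (-0.54, adjusted p = 0.00259), Slc66a3 (0.53, adjusted p = 0.0331) and Snx33 (0.35, adjusted p = 0.0165) were, however, called in the same direction at 6 against 15 months within the label BN. Ccng1, Col5a3, Lamc3 and Slco3a1 were not called there. In the other pair Col5a3 gave -1.28 (adjusted p = 2.79e-05), Limch1 -0.74 (adjusted p = 2.79e-05), Slc66a3 1.24 (adjusted p = 1.10e-06) and Ccng1 0.71 (adjusted p = 4.39e-06). Nupr1, Ntrk2, Itgb5, Ebf1, Nrep, Map4k4, Apbb2 and the second Ank3 probe set were called in both pairs and between the labels at 6 months. Nupr1 stood at 1.42 in the other pair. In all, 24 of the 70 calls were shared with the 6-month comparison of the labels alone, 8 with the other pair alone, 11 with both and 27 with neither. The last set holds Git2, Kcnk3, Acsl5, Mef2a and the other Ank3 probe set. The split does not use the comparison of 6 against 15 months within the label BN. Members of the last set called there in the same direction included the other Ank3 probe set (-1.06, adjusted p = 0.0299), Slc44a1 (-0.87, adjusted p = 0.00224) and Nfe2l1 (-0.73, adjusted p = 0.000354). Git2, Kcnk3, Acsl5 and Mef2a were not called there.

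**Figure D3:**
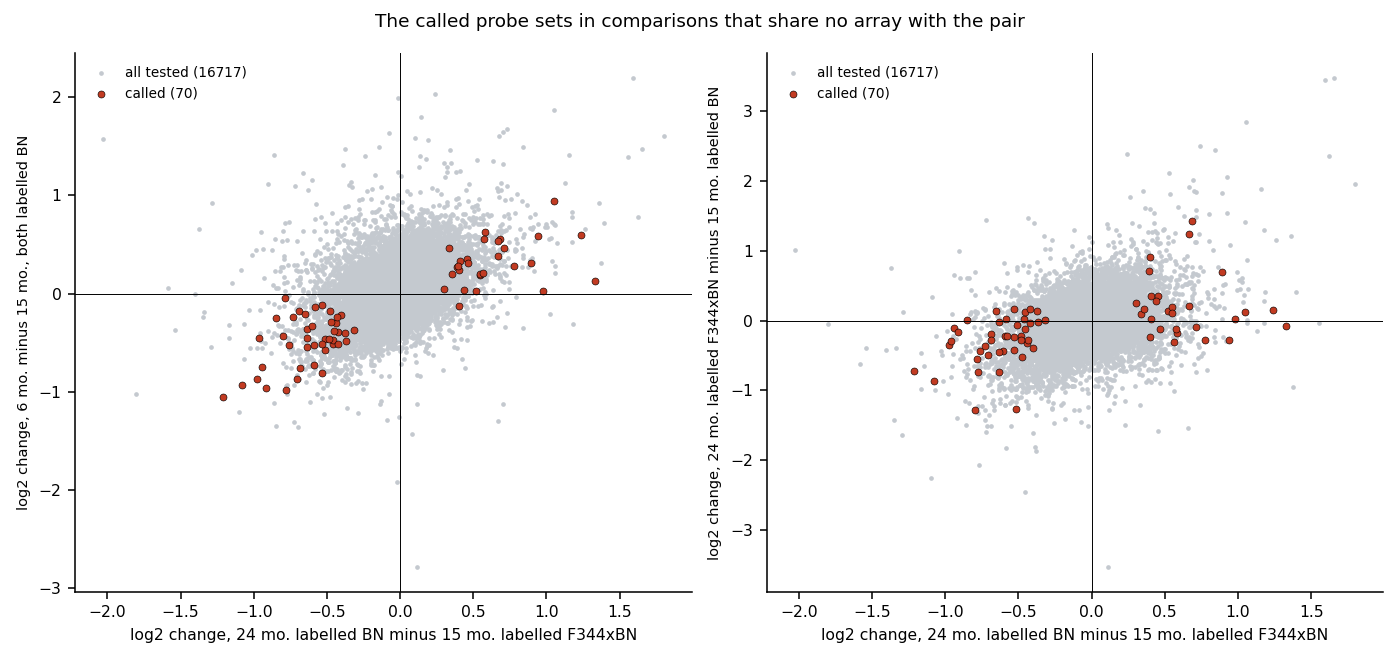
The log2 change of each of 16717 tested probe sets in the pair (horizontal axes) against its log2 change between 6 and 15 months in arrays labelled BN (left) and in the other marker-matched pair (right); red points are the 70 called probe sets. On the left 69 of the 70 red points lie in the quadrants of equal sign, on the right 52 do.

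The difference between the pairs was itself tested, and 11 probe sets (0.0658%) passed. Raph1 rose more in this pair, with a difference of 0.93 on the log2 scale (SE 0.15, adjusted p = 0.00296), and so did Rps6ka5, with 0.87 (SE 0.18, adjusted p = 0.0432), at 0.57 here and -0.30 there. Stk25, a kinase of the Golgi and of cell polarity, fell by 0.42 here and stood at 0.16 in the other pair, a difference of -0.58 (adjusted p = 0.0432). At 6 months, BN minus F344xBN, Rps6ka5 stood at 1.08 (adjusted p = 2.68e-07) and Stk25 at -0.49 (adjusted p = 0.000247). At 6 against 15 months within the label BN they stood at 0.21 (adjusted p = 0.356) and -0.52 (adjusted p = 0.000471). Nrep fell by 0.52 here, and its change in the other pair was -1.27 (adjusted p of the difference 0.0277). Nrk, Kcnd3 and Igfbp5, which were not called in this pair, differed between the pairs by 2.04, 0.84 and 1.43. The Igfbp5 probe set that differed gave 0.54 in this pair, and the other 3 Igfbp5 probe sets gave -0.27, -0.25 and -0.22.

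Averaged over both labels, 24-month arrays differed from 15-month arrays in 1376 probe sets (8.23%), 673 higher (4.03%) and 703 lower (4.21%), a comparison that holds these 12 arrays. Nupr1 stood at 1.05 there, Col5a3 at -1.04 and Limch1 at -0.68. Read by label alone, 24- against 15-month arrays labelled F344xBN, which share the 15-month arrays, gave 785 calls (4.7%), with Raph1 at 0.06, Tns1 at 0.12 and Nupr1 at 1.73. From 6 to 15 months within the label F344xBN, 2 probe sets (0.012%) were called, for Erg and Cpeb1, and 1876 had an unadjusted p under 0.05. From 6 months labelled F344xBN to 24 months labelled BN 1146 probe sets (6.86%) were called, with Raph1 at 1.32, Nupr1 at 1.39 and Ntrk2 at -0.92.

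In aorta labelled F344xBN, 24 against 15 months gave 49 calls (0.293%). The difference between the mesenteric pair and aorta passed for 6 probe sets (0.0359%), and 1 of them, Nfe2l1, a transcription factor of proteasome genes, was also called in the pair. Nfe2l1 fell by 0.59 in mesenteric artery and stood at 0.23 in aorta, a difference of -0.81 (adjusted p = 0.00848). Raph1 stood at 0.19 and Tns1 at 0.05 in aorta, and for neither did the difference between vessels pass (adjusted p = 0.354 and 0.258).

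Of 793 tested genes in the lists of cell types and pathways, each read at its brightest tested probe set, 2 were called, Sparc down and Ccng1 up. Another 2, Acsl5 of the fatty acid oxidation and Lrp5 of the Wnt list, were called at another probe set and stood at -0.34 (adjusted p = 0.638) and -0.33 (adjusted p = 0.488) at the one used here. The lists are therefore described by their medians, and of 42 lists with at least 4 tested genes the median took the opposite sign under at least 1 alternative in 25. The median change of all probe sets was 0.01 with a standard deviation over probe sets of 0.23. Since these are bulk samples, fewer cells of a type and less RNA per cell cannot be told apart.

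The endothelial list lay lowest, with a median of -0.50 over 18 tested genes, 16 of them below 0, and the median ran from -0.69 to -0.37 over the alternatives. None was called, and 8 had an unadjusted p under 0.05 against 5.24% of all probe sets on that side. Pecam1 (CD31), an adhesion molecule of endothelial junctions, had signals of 1997, 3632 and 6641 at 24 months and 4869, 6088 and 8499 at 15 months, with overlap, and a log2 change of -0.79 (adjusted p = 0.193). Plvap, which forms the diaphragms of endothelial fenestrae, gave 3564, 4806 and 6875 against 4901, 6776 and 8751 and a change of -0.51 (adjusted p = 0.18). The VEGF receptor Flt1 stood at -0.59 (adjusted p = 0.253) and the angiogenic factor Egfl7 at -0.71 (adjusted p = 0.237). The summed signal of the list ran from 46834 to 92352 at 24 months and from 61782 to 106773 at 15 months. In the average over both labels 6 of the 18 were lower and 1 higher at an adjusted p of 0.05. Of all tested probe sets 4.21% were lower and 4.03% higher there. In the other pair 1 of the 18 was called lower and 1 higher, against 3.24% and 3.54% of all. The median of the list was -0.41 in that pair, and all 18 had the same sign as here, against 61.9% of all tested probe sets.

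The macrophage list lay highest, with a median of 0.54 over 16 tested genes, all above 0, none called by limma and 1 with an unadjusted p under 0.05. Its summed signal ran from 23835 to 117190 at 24 months and from 14915 to 66461 at 15 months, where the lowest sums, 14915 and 18216, were those of the arrays with labelled masses of 6.30 and 6.50 mg. Tyrobp, an adaptor of myeloid receptors, gave 613, 828 and 3453 against 287, 584 and 1211 (log2 change 0.78, adjusted p = 0.492). The median was -0.16 without both of these arrays and -0.02 with the poly-A spike-ins as a covariate. It was 0.23 without the first of them, 0.28 without the second and 0.23 without the 24-month array of the highest sum. In the other pair the median of the macrophage list was also -0.16. The complement list had a median of 0.37 over 9 genes, which was -0.11 without both light arrays, -0.04 without the one of 6.30 mg alone and -0.04 with the poly-A covariate, and 0.10 without the 24-month array of the highest macrophage sum.

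The white adipocyte list had a median of -0.37 over 12 genes, all below 0. Its summed signal ran from 28493 to 185198 at 24 months and from 52332 to 220760 at 15 months, and the lowest values belonged to the 24-month array lowest for macrophage genes and to the 15-month array of 6.30 mg. The median was 0.11 without that 24-month array, -0.61 without that 15-month array, -0.15 and -0.21 without the first and the second 15-month array, and -0.87 with the poly-A covariate. Hormone-sensitive lipase Lipe stood at -0.90 (adjusted p = 0.39). The smooth muscle list had a median of -0.10 over 19 genes (-0.20 to 0.15 over the alternatives), with the myosin heavy chain Myh11 at -0.15. The fibroblast list had a median of 0.17 (-0.03 to 0.29 over the alternatives), and T and NK cell, B cell and erythrocyte markers had 2, 1 and 2 genes above the filter. The part of cell makeup in the changes was not tested.

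Collagen and elastic fibre genes had a median of 0.17 over 36, with 29 above 0, 7 with an unadjusted p under 0.05 on that side (4.86% of all probe sets) and Sparc the only call. The median was 0.06 without the 24-month array of the highest macrophage sum, 0.08 without both light 15-month arrays and 0.05 with the poly-A covariate. Loxl1, which cross-links elastin, gave 9778, 13605 and 17735 at 24 months and 8436, 9604 and 13492 at 15 months, a log2 change of 0.43 (adjusted p = 0.0919). Ltbp2, a microfibril protein, stood at 1.05 (adjusted p = 0.256) and fibronectin Fn1 at 0.46 (adjusted p = 0.269). Median Ltbp2 signals were 599 at 24 and 294 at 15 months in the pair, and those of Fn1 20672 and 13910. In the 6-month arrays labelled BN the medians were 588 for Ltbp2, 19187 for Fn1 and 9510 for Loxl1. Those labelled F344xBN had 251, 13524 and 8950 at 6 months. Over both labels Ltbp2 stood at 1.95 (adjusted p = 8.72e-06) and Loxl1 at 0.53 (adjusted p = 8.22e-05). There 7 of the 36 genes were called higher and 2 lower, against 4.03% and 4.21% of all tested probe sets. That average includes the arrays of the pair. In the other pair, which holds separate arrays, the median of the list was -0.03. Of the 36 genes 22 had the same sign there as here, against 61.9% of all tested probe sets. In that pair 6 were called higher and 2 lower, against 3.54% and 3.24% of all.

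In the calcification list Spp1 missed the threshold narrowly. Its signals were 450, 952 and 2040 at 24 months and 136, 332 and 419 at 15 months, without overlap, a log2 change of 1.66 (SE 0.40, adjusted p = 0.0556). The 6-month arrays labelled BN gave 231, 616 and 1485 for Spp1, which overlapped the 24-month arrays. Those labelled F344xBN gave 86.1, 176 and 278 at 6 months. Spp1 stood at 3.48 in the other pair, and the difference between the pairs, -1.82 (SE 0.57), did not pass (adjusted p = 0.302). Alpl gave 323, 657 and 793 against 206, 322 and 489 (log2 change 0.94, adjusted p = 0.076) and the cartilage matrix protein Comp stood at 0.52 (adjusted p = 0.307). Over both labels 4 of the 14 tested genes of this list were called, all higher at 24 months, against 4.03% of all tested probe sets.

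Among Wnt-related genes Ccn5, a matricellular protein that restrains smooth muscle growth, gave 979, 1199 and 1339 against 474, 617 and 845 without overlap (log2 change 0.89, adjusted p = 0.083). Dkk3, a Dickkopf family member, stood at 0.59 (adjusted p = 0.0972). Angiotensinogen (Agt), the precursor of angiotensin II, gave 219, 997 and 2079 against 789, 2263 and 2995 (log2 change -1.29, adjusted p = 0.147). Elovl6, a fatty acid elongase, gave 219, 345 and 574 against 462, 546 and 598 (log2 change -0.62, adjusted p = 0.0684), and the lipogenesis list had a median of -0.25 over 21 genes. Nrp2, a semaphorin and VEGF co-receptor, stood at -0.75 (adjusted p = 0.0919). Lists with medians near that of all probe sets included oxidative phosphorylation (-0.01 over 71 genes), cytosolic ribosomal proteins (0.04 over 39), the interferon-stimulated genes (-0.02 over 17), cholesterol synthesis (-0.01 over 17) and the unfolded protein response (-0.03 over 22).

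**Figure D4:**
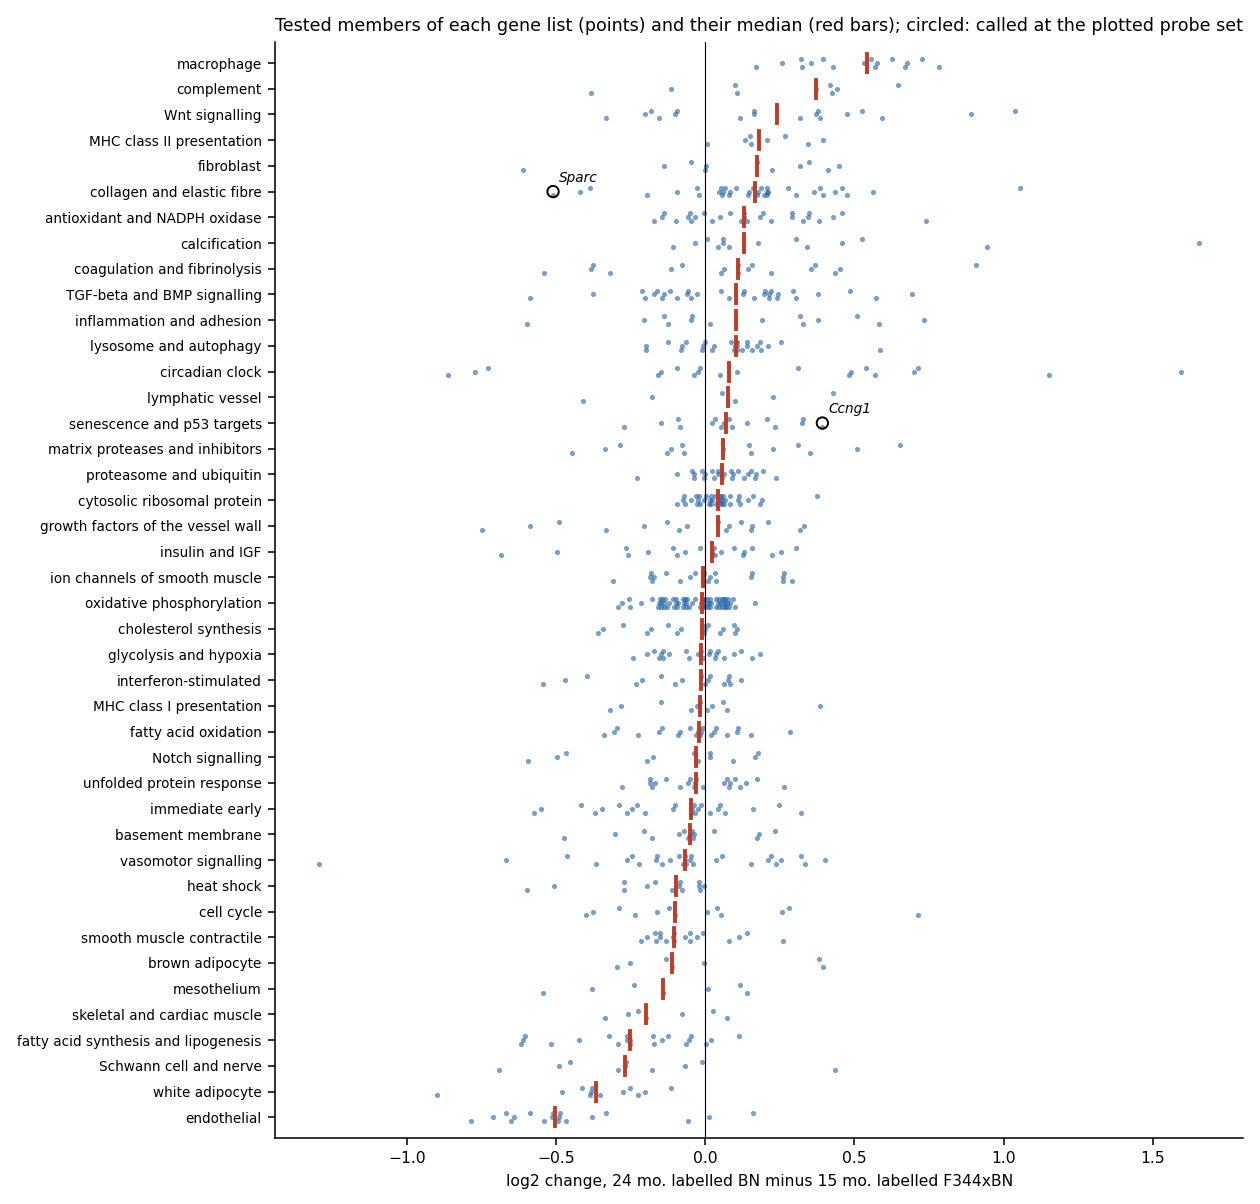
The log2 change from 15 months (labelled F344xBN) to 24 months (labelled BN) of each tested member of the gene lists with at least 4 tested members; points are genes, red bars are list medians and circles mark genes called at the plotted probe set. The macrophage list has the highest median (0.54) and the endothelial list the lowest (-0.50), and only Sparc and Ccng1 are circled, since Acsl5 and Lrp5 are plotted at probe sets that were not called.

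The circadian clock genes are shown with promoters because they are known to be driven through short elements near their starts. In the clock, the Bmal1 and Clock or Npas2 proteins drive genes through E-boxes, Dbp, Tef and Hlf act through D-boxes where Nfil3 represses, and Ror and Rev-erb proteins act through ROR elements such as those of Bmal1. The sequences below are the 250 bases before the RefSeq start in GRCr8, in the gene's direction, with capitals for a match to the E-box CACGTG, the D-box TTANGTAA or the ROR element core AGGTCA on either strand.
Per2, chr9:99496994-99497243, minus strand: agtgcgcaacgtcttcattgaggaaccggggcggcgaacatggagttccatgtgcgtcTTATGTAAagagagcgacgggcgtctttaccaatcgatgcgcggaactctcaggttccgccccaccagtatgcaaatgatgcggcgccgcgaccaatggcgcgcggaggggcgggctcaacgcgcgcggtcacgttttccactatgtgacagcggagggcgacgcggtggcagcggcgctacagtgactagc
Tef, chr7:115206577-115206826, plus strand: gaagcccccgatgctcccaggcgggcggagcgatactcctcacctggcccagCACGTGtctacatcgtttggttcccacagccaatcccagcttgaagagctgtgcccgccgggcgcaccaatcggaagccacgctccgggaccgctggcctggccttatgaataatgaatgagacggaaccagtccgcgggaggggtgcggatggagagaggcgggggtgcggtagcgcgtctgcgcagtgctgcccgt
Bhlhe41, chr4:180569356-180569605, minus strand: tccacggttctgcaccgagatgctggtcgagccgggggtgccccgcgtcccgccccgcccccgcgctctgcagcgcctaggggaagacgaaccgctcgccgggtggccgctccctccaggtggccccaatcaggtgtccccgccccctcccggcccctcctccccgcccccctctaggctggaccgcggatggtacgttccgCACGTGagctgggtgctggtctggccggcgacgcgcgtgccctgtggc
Bmal1, chr1:176766078-176766327, plus strand: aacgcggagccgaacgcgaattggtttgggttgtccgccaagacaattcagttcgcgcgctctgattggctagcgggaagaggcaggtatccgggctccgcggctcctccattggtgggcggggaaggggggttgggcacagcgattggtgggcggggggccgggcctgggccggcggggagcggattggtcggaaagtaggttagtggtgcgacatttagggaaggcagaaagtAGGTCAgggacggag
Of 20 tested clock genes 17 had a promoter in the RefSeq table, and 3 of these (17.65%) held an E-box, 1 (5.88%) a D-box and 3 (17.65%) a ROR element core, against 5.795%, 2.02% and 13.66% of 27457 promoters. The windows of Dbp, Npas2 and Nfil3 held none of the 3. A match is a run of letters, and these shares are descriptions.

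None of the 20 clock genes was called in the pair by limma, and 5 above 0 and 3 below had an unadjusted p under 0.05. The list had 11 members above and 9 below 0, with a median of 0.08 (0.03 to 0.49 over the alternatives), and 12 members lay between -0.16 and 0.70 with larger p. Dbp, an activator whose transcript swings widely over the day, had signals of 752, 3791 and 8114 at 24 months and 270, 868 and 3106 at 15 months, a log2 change of 1.59 with a standard error of 0.68 (adjusted p = 0.395). Bhlhe41 (Dec2), a repressor induced by the clock, gave 1230, 2792 and 5129 against 717, 933 and 2189 (log2 change 1.15, adjusted p = 0.165). Per2 stood at 0.71, Tef at 0.57 and Hlf at 0.48. On the other side, Bmal1 gave 198, 412 and 1138 against 489, 678 and 1397 (log2 change -0.73, adjusted p = 0.4), Npas2 stood at -0.77 and Nfil3 at -0.86. Hlf, Bmal1, Npas2 and Nfil3 were picked after their values were seen.

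The spread within a group was wide and shared by these genes. The 24-month array with the highest Dbp signal, 8114, had the highest Bhlhe41 (5129) and the lowest Bmal1 (198), and the one with the lowest Dbp, 752, had the highest Bmal1 (1138). At 15 months the array with the highest Dbp, 3106, likewise had the lowest Bmal1 (489). In the other pair 8 of 20 clock genes were called higher and 3 lower, against 3.54% and 3.24% of all tested probe sets. Over both labels, a comparison that holds the 12 arrays of the pair, the counts were also 8 and 3, against 4.03% and 4.21%. Over both labels Dbp stood at 2.52, Bhlhe41 at 1.52, Npas2 at -1.42 and Nfil3 at -1.18. The hour at which tissue was taken is not given in the sources used here.

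**Figure D5:**
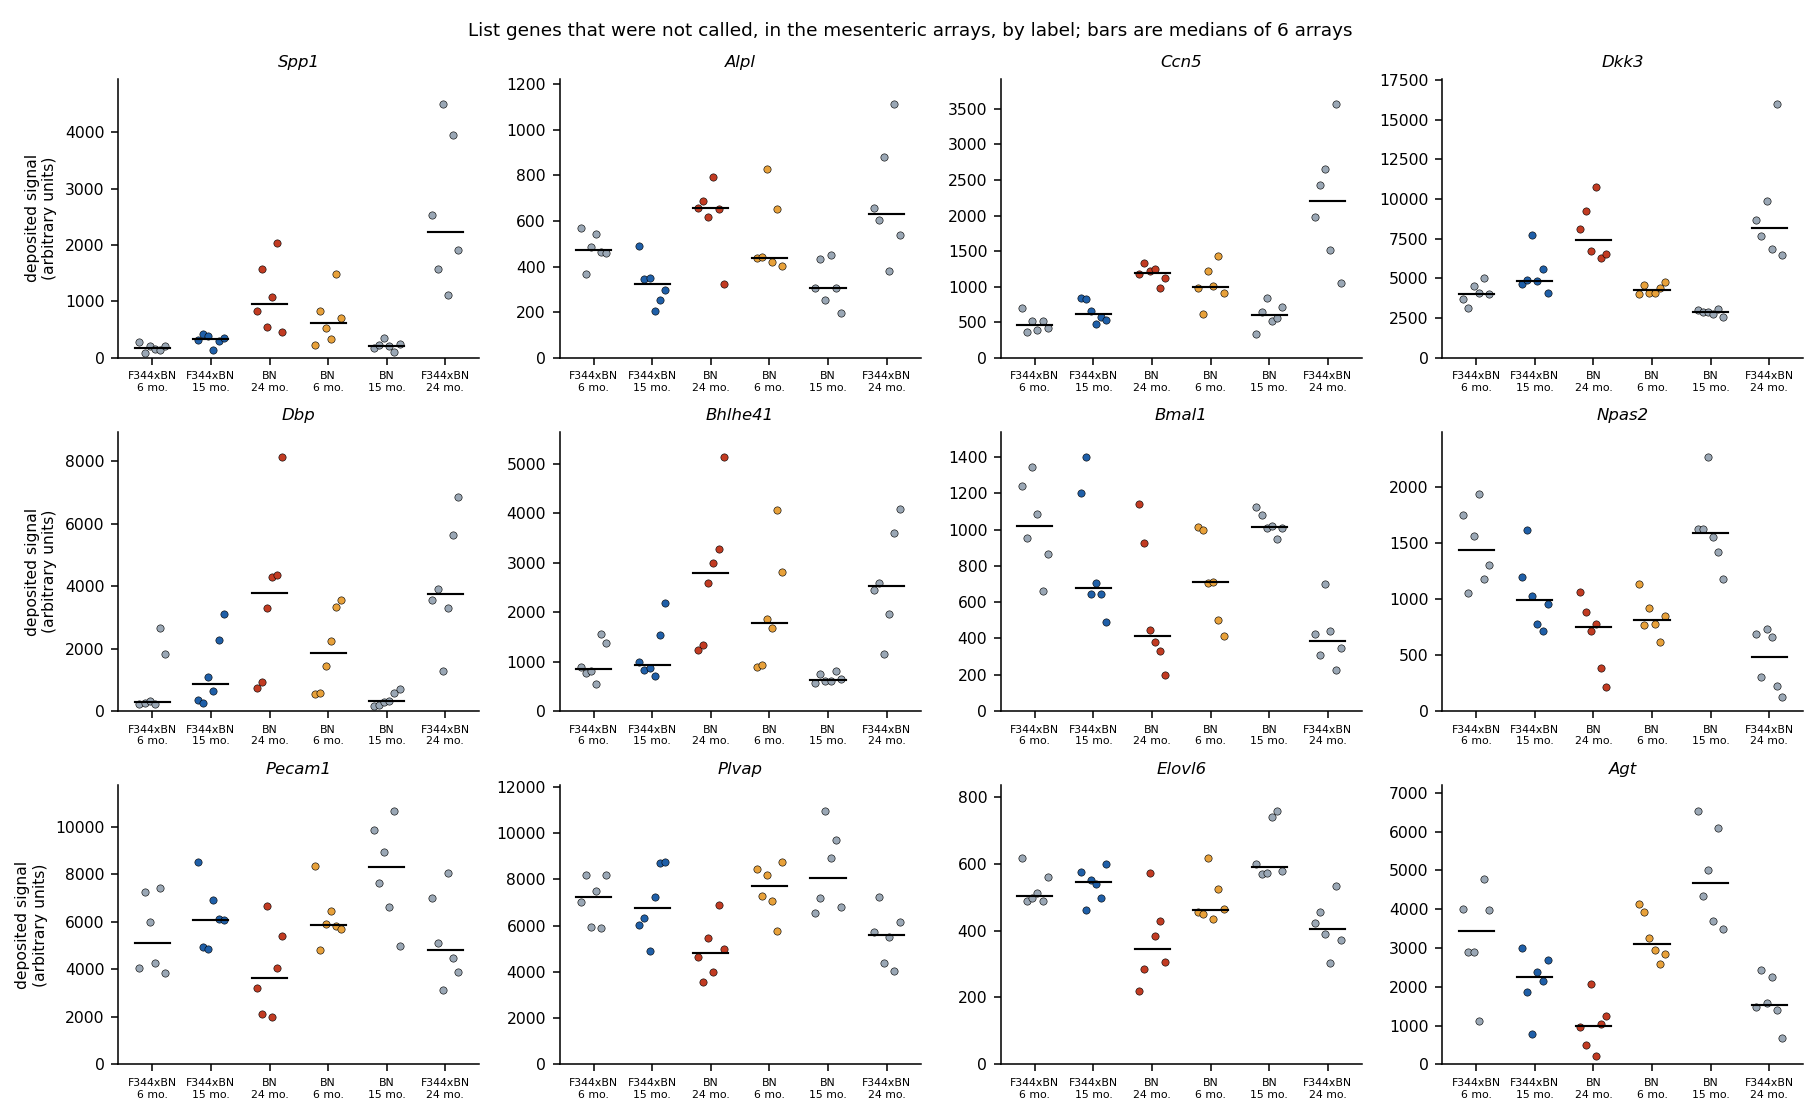
Deposited signal (arbitrary units, linear axis from 0) of 12 list genes that were not called in the pair, in each of the 36 mesenteric arrays grouped by label; points are arrays and bars are medians of 6 arrays. For Spp1 the 24-month arrays labelled BN (red) run from 450 to 2040 and the 15-month arrays labelled F344xBN (blue) from 136 to 419, while for Dbp and Bmal1 both groups spread widely and overlap.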

How the data were processed

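The authors' deposited table of 71 arrays held linear signal intensity values made with GCOS and MAS5, per the submitters' processing notes; each array's 2% trimmed mean was near 1000 (1000.28 to 1000.43) and array medians ran from 279 to 346. Signals were taken to log2 without an offset. Of 31099 probe sets, 57 controls were left out, and 16717 were tested whose mean over aorta or mesenteric arrays reached a signal of 292. Platform annotation gave 1 symbol to 20826 probe sets, several to 436 and none to 9780. limma 3.58.1 in R 4.3.3 was fitted to 36 mesenteric arrays as 6 group means (71 arrays as 12 means for aorta), with eBayes trend and robust estimates and Benjamini-Hochberg adjustment over all tested probe sets, called at 0.05. Array measures were compared by exact permutation tests over 924 splits (smallest p 0.00216) in Python 3.11.15. The fit was tested on simulated data. The number of arrays limits the precision. Groups came from the labels. Named genes were the 12 largest rises and 12 largest falls among called probe sets with 1 symbol, and up to 4 members a list with the smallest p, each list gene at its tested probe set of highest mean. Promoters were from RefSeq (GRCr8). Alternatives changed the scaling, offset, filter, variance model, weights, arrays and covariates. The pair, the members and the gene lists were chosen with earlier results of these data known.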

Additional observations from a re-analysis of the deposited data

Results flagged for a closer look

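In 12 of 144 groups of 6 arrays examined, the highest or lowest array stood apart from the rest by Dixon's criterion, where chance gives about 1 in 20. Among named genes the highest 15-month arrays were at 1663 for Ank3 (next 727) and 1497 for Kcnk3 (next 916), and the highest 24-month arrays at 5133 for Mef2a (next 4095) and 359 for Rnf40 (next 245). Among array measures the highest 24-month tissue mass was 13.9 mg (next 11.3) and the highest 24-month hybridisation spike-in level was 13.34 on the log2 scale (next 12.64). Among list scores, the mean log2 signal of a list's genes, the highest 24-month array stood at 10.76 for the cell cycle, 11.68 for glycolysis and hypoxia and 11.13 for inflammation and adhesion. At 15 months the highest stood at 12.54 for the immediate early and 9.02 for the mesothelium list, and the lowest at 11.92 for the proteasome list.

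Changes that differed between the marker-matched pairs in limma's test of the difference, this pair minus the other, were those of Raph1 (0.93), Rps6ka5 (0.87), Nrk (2.04), Kcnd3 (0.84), Igfbp5 (1.43), Nrep (0.76) and Stk25 (-0.58). Nrk, a kinase, stood at 0.45 in this pair and -1.59 in the other, and Kcnd3, a potassium channel, at -0.18 and -1.02. Between the mesenteric pair and aorta, Peli2 differed by 1.48 (0.09 against -1.39) and Nfe2l1 by -0.81.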

How the results depend on the processing

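The 70 calls of the pair, 28 risen and 42 fallen, stayed between 47 and 70 with quantile normalization, an offset, eBayes without trend and robust estimates or tissue mass as a covariate, where the falls alone dropped to 27 with mass. Calls, risen and fallen were 28, 11 and 17 without a filter, 36, 14 and 22 with the stricter filter, 274, 120 and 154 with array weights, 7, 3 and 4 with only the 12 arrays compared, 14, 6 and 8 with all 71 arrays, and 194, 84 and 110 with the poly-A spike-ins as a covariate. With the Gapdh end difference as a covariate there were 106 calls and 45 rises. Leaving out each array in turn gave 21 to 86 calls, 9 to 39 rises and 12 to 47 falls. Without both 15-month arrays under 10 mg, an alternative chosen after seeing the data, 42 were called and 23 fell.

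Calls averaged over both labels went from 1376 to 2936 with array weights. The difference between the pairs (11) gave 7 without a filter, 5 with the stricter one and 120 with weights. Pairing by label (785) gave 491 with the stricter filter and 1550 with weights. The 15- against 6-month comparison (2) gave 6 with quantile normalization, 0 with the offset, 0 without a filter, 11 with the stricter filter, 0 without trend and robust estimates and 8 with weights. The vessel difference (6) gave 10 with quantile normalization, 3 without a filter, 1 with the stricter filter and 243 with weights. The cause of these moves was not tested, except that filters change how many probe sets are tested and left-out arrays lower the number of arrays. Of the 24 named genes, 23 lost their call under at least 1 alternative and none reversed. Of 71 list genes named or checked, 15 that were not called in the main run were called under at least 1 alternative. No paired analysis was possible because the labels give no replicate numbers shared between groups. Signals near background limit the dimmest genes, and 6 arrays a group limit the precision.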
